A study of Mus musculus with 25 samples.

Results

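The nuclear genes of the mitochondrial respiratory chain and ATP synthase were described in RNA sequencing of mouse liver. Genes absent from any of the 5 deposited tables were left out first, which kept 24774 of 30524 genes. Members were the protein-coding rows among these whose symbol begins with Nduf, Uqcr, Atp5 or Cox4 to Cox8, which gave 89 genes. A gene of such a name that a table lacked would not be counted. By role, 37 are subunits of complex I, 8 are assembly factors of complex I, 8 belong to complex III, 19 to complex IV and 17 to complex V. Ndufa4 and Ndufa4l2, named for complex I, were placed with complex IV, where Ndufa4 is now known to sit. Cox5b-ps, a row named as a pseudogene but typed as protein-coding, stayed a member and was left out of the sums for complex IV.

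The mice were C3H/HeJ males according to the labels, an inbred strain prone to liver tumours, and were 5 weeks old at the start. The DEN_CAF_SOR group (5 libraries) had 25 mg/kg of the alkylating carcinogen diethylnitrosamine (DEN) by intraperitoneal injection, 2 times a week over 5 cycles, then a rest of 1 month, then 50 mg/kg caffeine 3 times a week and 30 mg/kg sorafenib 2 times a week by gavage for 3 weeks. The DEN_SOR group (4 libraries) had the carcinogen and then sorafenib, a multikinase inhibitor used against liver cancer. The DEN_CAF group (5 libraries) had the carcinogen and then caffeine, and the DEN group (6 libraries) had the carcinogen and then the drug vehicles. The Untreated group (5 libraries) had saline in place of the carcinogen and then vehicles. The labels call every sample liver and do not say whether tumour nodules were part of it. Titles number the mice within a group, so each library was taken as a separate animal.

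The respiratory chain sits in the inner mitochondrial membrane. Complexes I, III and IV pass electrons to oxygen and pump protons, and complex V uses the proton gradient to make ATP. Most subunits are encoded in the nucleus and imported, while a small catalytic set in complexes I, III, IV and V is encoded by mitochondrial DNA, so the complexes draw on both genomes. Hepatocytes are rich in mitochondria and use this ATP for gluconeogenesis, urea synthesis and protein secretion. Transcription of the nuclear genes is classically tied to the factors NRF1, GABP (an ETS factor), YY1 and ERR alpha, with the PGC-1 coactivators.

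Promoter sequences were searched for letters bound by the factors named above. RefSeq promoters on GRCm38.p6 (250 bases before the start and 50 after it) were found for 73 of the 89 genes, 78 promoters in all. Letters were searched on both strands, and those for NRF1 and YY1 were each 1 letter shorter than planned. The NRF1 letters CGCATGCGC stood in the promoters of 10 of the 73 genes (12.8% of member promoters, against 1.75% of all 32851 promoters in the table). The ETS letters CCGGAAG stood in 17 genes (21.8% of member promoters against 8.86%), the YY1 letters AAGATGGCG in 8 (10.3% against 1.4%) and the ERR letters TCAAGGTCA in 1, Atp5g3 (1.28% against 0.423%). At least 1 of these stood in 30 of the 73 genes, 38.5% of member promoters against 11.7% of all promoters. A match describes the letters only. The NRF1 letters nearly read the same on both strands, so both orientations can match at a single place.

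A promoter with the NRF1 letters is printed for each complex, 5′ to 3′ on the gene's strand, with matches to the NRF1 and ETS letters on either strand in capitals. Ndufa8 is an accessory subunit of complex I (chr2:36049289-36049588, minus strand), Uqcr11 a small subunit of complex III (chr10:80406772-80407071, minus strand), Cox6a1 the ubiquitous form of a complex IV subunit (chr5:115348909-115349208, minus strand) and Atp5k the e subunit of complex V (chr5:108434350-108434649, minus strand).
Ndufa8: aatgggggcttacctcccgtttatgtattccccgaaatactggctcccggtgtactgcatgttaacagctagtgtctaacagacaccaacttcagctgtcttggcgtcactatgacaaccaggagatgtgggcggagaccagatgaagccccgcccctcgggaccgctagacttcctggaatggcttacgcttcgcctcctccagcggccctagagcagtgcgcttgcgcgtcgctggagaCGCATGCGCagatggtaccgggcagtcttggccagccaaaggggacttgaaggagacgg
Uqcr11: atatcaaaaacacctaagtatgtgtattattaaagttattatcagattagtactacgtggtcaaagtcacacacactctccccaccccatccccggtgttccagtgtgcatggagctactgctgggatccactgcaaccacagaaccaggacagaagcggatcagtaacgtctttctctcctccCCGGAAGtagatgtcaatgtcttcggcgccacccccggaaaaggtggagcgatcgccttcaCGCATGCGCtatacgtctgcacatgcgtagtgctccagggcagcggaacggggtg
Cox6a1: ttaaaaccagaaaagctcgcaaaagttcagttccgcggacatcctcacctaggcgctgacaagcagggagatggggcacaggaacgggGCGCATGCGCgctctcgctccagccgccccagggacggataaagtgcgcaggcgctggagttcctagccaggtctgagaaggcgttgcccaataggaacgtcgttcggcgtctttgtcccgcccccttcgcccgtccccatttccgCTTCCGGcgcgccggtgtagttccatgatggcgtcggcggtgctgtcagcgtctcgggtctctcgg
Atp5k: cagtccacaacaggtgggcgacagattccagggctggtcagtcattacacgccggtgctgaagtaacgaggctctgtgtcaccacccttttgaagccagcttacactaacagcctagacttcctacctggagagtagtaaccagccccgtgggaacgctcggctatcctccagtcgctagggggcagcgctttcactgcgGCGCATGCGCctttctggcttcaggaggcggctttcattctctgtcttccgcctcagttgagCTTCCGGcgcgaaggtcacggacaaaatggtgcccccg
Counted from the start, the NRF1 letters began at position -9 in Ndufa8 and at -5 in Uqcr11. In Cox6a1 and Atp5k the letters CTTCCGG, the ETS match on the opposite strand, also lie in the window. Uqcr11 holds the ETS letters on its own strand.

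Levels are given as FPKM, reads scaled to the length of the gene and to the total assigned reads of the library, computed from reads recovered from the deposited values. Of the 89 genes, 86 reached 1 FPKM in at least 4 libraries and were tested, together with 12741 genes in all. The median member stood at 75.2 FPKM over the 25 libraries, against 3.84 FPKM for all tested genes. Of the 86, 75 averaged above 10 FPKM (87.2%, against 25.9% of all tested genes) and 15 above 200 FPKM. FPKM depends on the length the tables list, which joins all annotated exons, so a gene with a long rarely used exon reads low.

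**Figure D1:**
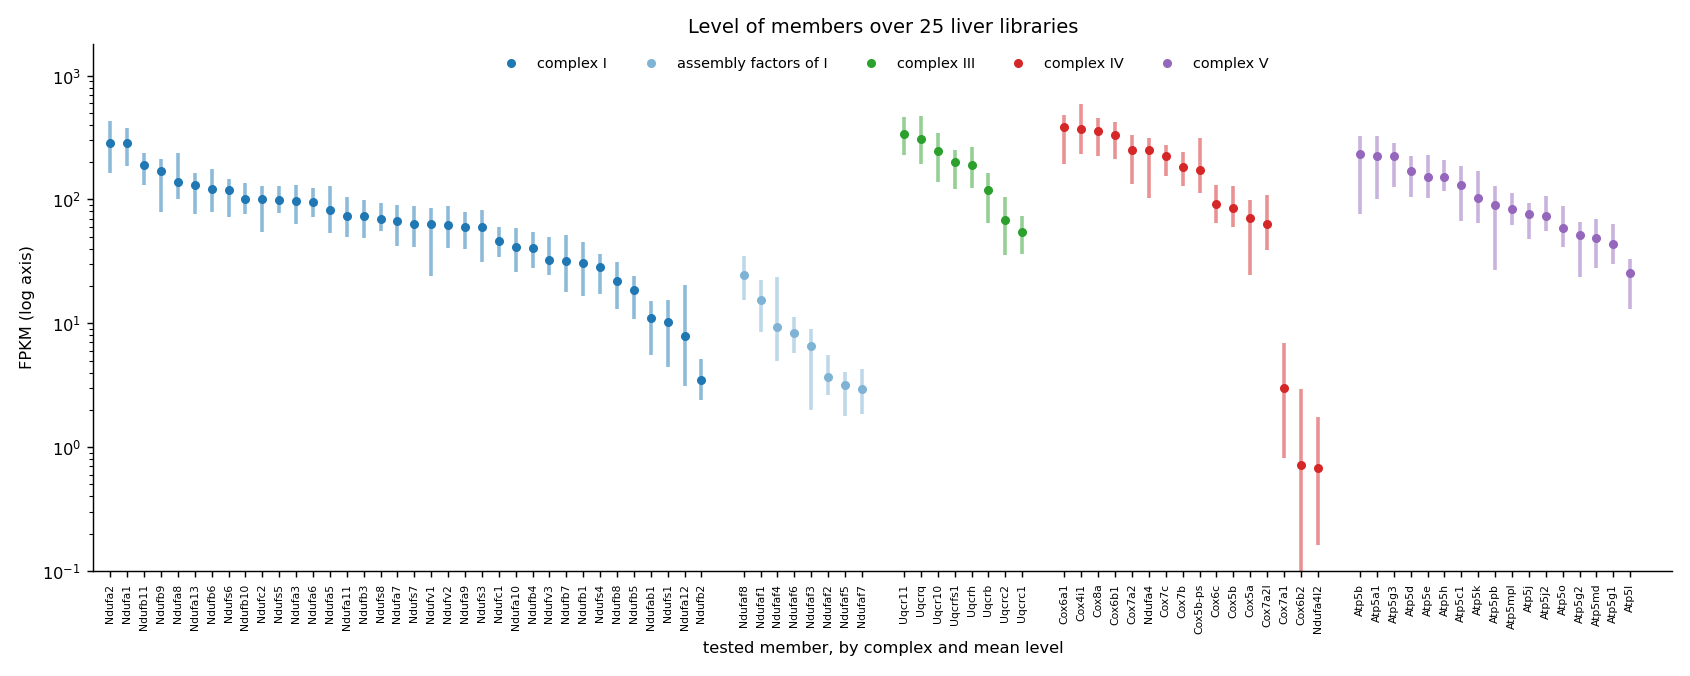
Mean FPKM of the tested members over 25 libraries (points, log axis) with the lowest and highest library (bars), grouped by complex. Levels run over more than 2 orders, with Cox6a1 at 387 FPKM on top and the tissue forms Ndufa4l2 and Cox6b2 under 1 FPKM. Cox6b2 was at 0 in 1 library, where its bar runs off the axis.

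In complex I, Ndufa2, an accessory subunit, had the highest mean (284 FPKM), close to Ndufa1 (283 FPKM), and Ndufb2 had the lowest (3.47 FPKM, over a listed length of 5628 bases). Among the core subunits, several of which carry the flavin or iron-sulfur clusters, Ndufs8 averaged 69.5 FPKM, Ndufs7 63.3, Ndufv1 63.3, Ndufv2 62.6, Ndufs3 59.6 and Ndufs1 10.3 FPKM. Ndufs1 is listed with 8086 bases. The 8 assembly factors, which help build the complex without staying in it, lay between 2.96 FPKM (Ndufaf7) and 24.5 FPKM (Ndufaf8).

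Complexes III, IV and V were led by small subunits, apart from the catalytic head of ATP synthase. In complex III, Uqcr11 averaged 337 FPKM and Uqcrq 307 FPKM, the Rieske iron-sulfur protein Uqcrfs1 199 FPKM, and the core proteins Uqcrc2 68.8 and Uqcrc1 55.1 FPKM. In complex IV, Cox6a1 averaged 387 FPKM and Cox4i1, a regulatory subunit, 372 FPKM. In complex V, the beta subunit Atp5b, which makes ATP, averaged 231 FPKM and the alpha subunit Atp5a1 226 FPKM. Atp5l, the g subunit in the membrane part, was lowest at 25.6 FPKM.

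The common isoforms gave nearly all the signal. Cox4i1 made up 99.9% of Cox4i1 plus Cox4i2 FPKM over all libraries (SD 0.126, n = 25). Cox6a1 over Cox6a2, the muscle form, and Cox8a over Cox8b, the muscle and brown fat form, stood at the same mean share, 99.9% each. Cox4i2, Cox6a2 and Cox8b were the 3 untested members, with at most 21, 12 and 7 reads in any library. Cox6a2 had no read in 12 of the 25 libraries. Among the genes for the proton-carrying c ring, Atp5g3 gave 70% (SD 2.77, n = 25), Atp5g2 16.1% (SD 2.7) and Atp5g1 13.9% (SD 2.13). These 3 genes encode the same mature protein.

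Cox7a1, the heart and muscle form of a complex IV subunit, was the tissue form with the most reads. It made up 1.41% ± 0.503 of Cox7a1 plus Cox7a2 FPKM in DEN_CAF_SOR livers, 1.41% ± 0.518 in DEN_SOR, 1.17% ± 0.32 in DEN_CAF, 1.09% ± 0.315 in DEN and 0.751% ± 0.329 in Untreated livers (SD, n = 5, 4, 5, 6 and 5). The ranges of all 5 groups overlapped. Summed FPKM of 10 skeletal and heart muscle markers had medians of 1.28, 1.87, 1.35, 1.55 and 1.14 in the same groups, with 5.63 as the highest library (DEN_CAF), and the part of muscle RNA in these shares was not tested. Hepatocyte markers were high throughout: 9 genes summed to between 25471 and 90434 FPKM, and transferrin (Tf) was not among the genes present in all 5 tables.

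A few libraries stood apart before any comparison. Assigned reads ran between 14750278 and 21992613 per library, of which 5.65% to 34.8% came from mitochondrial DNA. The labels give replicate numbers but no batch. The share was 6.36% to 34.8% in the 10 libraries numbered 3 or 4 (median 17.2%) and 5.65% to 9.81% in the other 15 (median 7.35%). DEN 4 had the lowest share of nuclear reads from members (1.09%, against 1.24% to 2.17% elsewhere), the highest summed hepatocyte markers (90434 FPKM, against 26553 to 46091 in the other DEN libraries) and 417 FPKM over 7 neutrophil and monocyte markers, against 7.12 to 55.2 in the other DEN libraries. Untreated 3, 4 and 5 held 13370 to 29770 reads of Xist, the RNA of the inactive X in females, where the labels say male. Ddx3y, a gene of the Y chromosome, had 30 to 84 reads there. DEN 4 held 132 Ddx3y reads with 2 Xist reads, against 1181 to 1604 Ddx3y reads in the other DEN libraries. Values without DEN 3 and 4, without Untreated 3, 4 and 5, or by library number stand beside the comparisons.

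The complexes tended to be high or low in the same libraries. Summed FPKM of all subunits ran between 6798 in DEN 4 and 11842 in DEN_CAF_SOR 3. In 18 of 25 libraries the medians of complexes I, III, IV and V all lay on the same side of their means over libraries. The gap between the highest and lowest complex in a library had a median of 0.09 on the log2 scale and reached 0.30 in DEN 4. Libraries share scaling across all genes, so this is a description.

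Complex I summed to 2682, 2983, 3894, 3742 and 3077 FPKM in DEN_CAF_SOR livers 1 to 5, to 2939, 2592, 3143 and 2715 in DEN_SOR, to 3303, 2980, 3220, 2857 and 2913 in DEN_CAF, to a lowest of 2495, a median of 2982 and a highest of 3162 in DEN, and to 2935, 2291, 3222, 3095 and 3482 in Untreated livers. DEN_CAF_SOR 3 and 4 were the highest of all 25, and every group overlapped every other. Means were 3276 ± 519, 2847 ± 244, 3055 ± 196, 2905 ± 272 and 3005 ± 446 FPKM in that order of groups (SD). Complex III gave 1645 ± 242, 1426 ± 137, 1545 ± 124, 1456 ± 209 and 1537 ± 253 FPKM. Complex IV gave 2978 ± 347, 2417 ± 308, 2708 ± 334, 2572 ± 549 and 2673 ± 337 FPKM. Complex V gave 2082 ± 221, 1762 ± 181, 1950 ± 306, 1860 ± 391 and 2022 ± 249 FPKM. In each complex DEN_CAF_SOR had the highest mean and DEN_SOR the lowest, and neighbours in the order of means differed by less than the larger of their SDs. These highest and lowest means differed by more than either SD in complexes IV and V, and by less than the larger SD in complexes I and III. Scaled to nuclear reads alone, DEN_CAF_SOR stayed highest in each complex, but DEN_SOR was lowest in complexes IV and V only: complex I then had means of 3444 FPKM in DEN_SOR, 3328 in DEN and 3291 in Untreated livers, and complex III 1718, 1661 and 1684 FPKM.

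**Figure D2:**
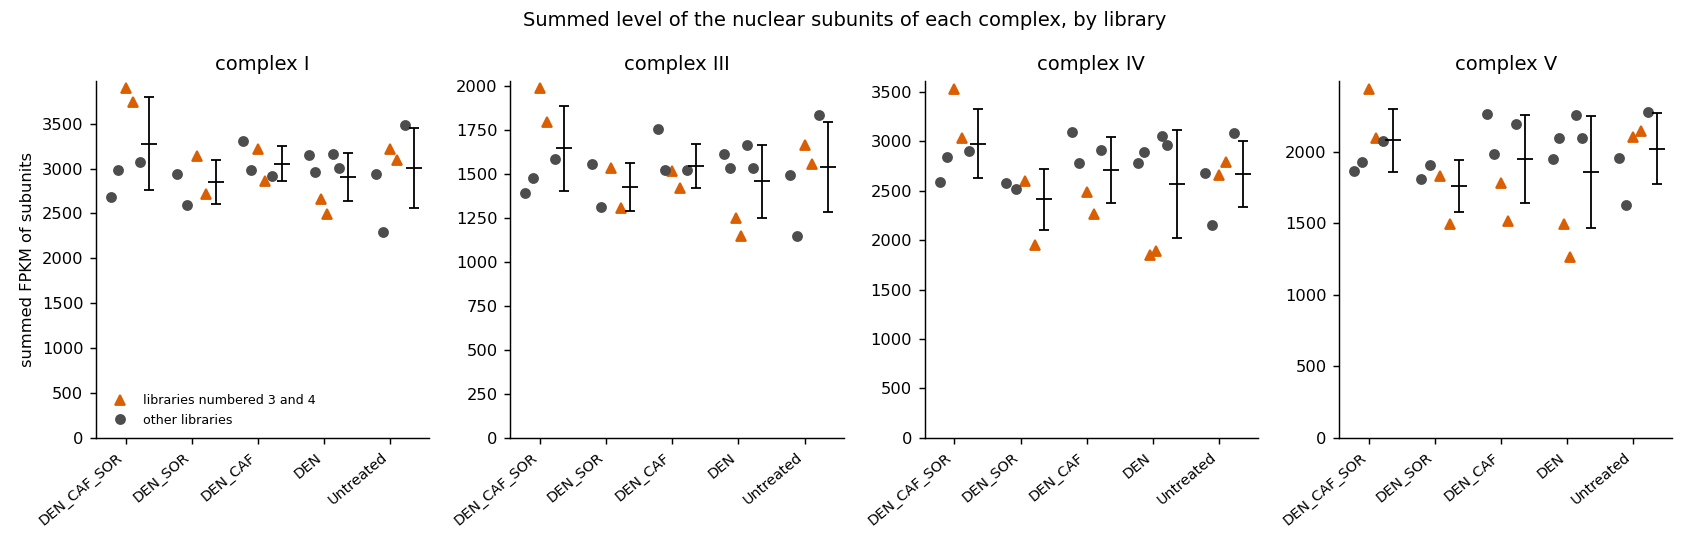
Summed FPKM of the subunits of complexes I, III, IV and V in each library (points) with the group mean and SD (bars), groups on the horizontal axis. Triangles are libraries numbered 3 and 4. In DEN_CAF_SOR livers the triangles reach 3894 FPKM for complex I, and in DEN livers they are the lowest points of all 4 complexes.

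Each comparison below used limma on log2(FPKM + 1) with Benjamini-Hochberg adjustment over the 12741 genes. No member passed an adjusted p of 0.05 in any of the 7 comparisons by limma, edgeR or DESeq2. Fold changes are therefore values of genes that did not pass the test, each with its standard error (SE). In bulk tissue, fewer cells of a type and less RNA per cell cannot be told apart.

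**Figure D3:**
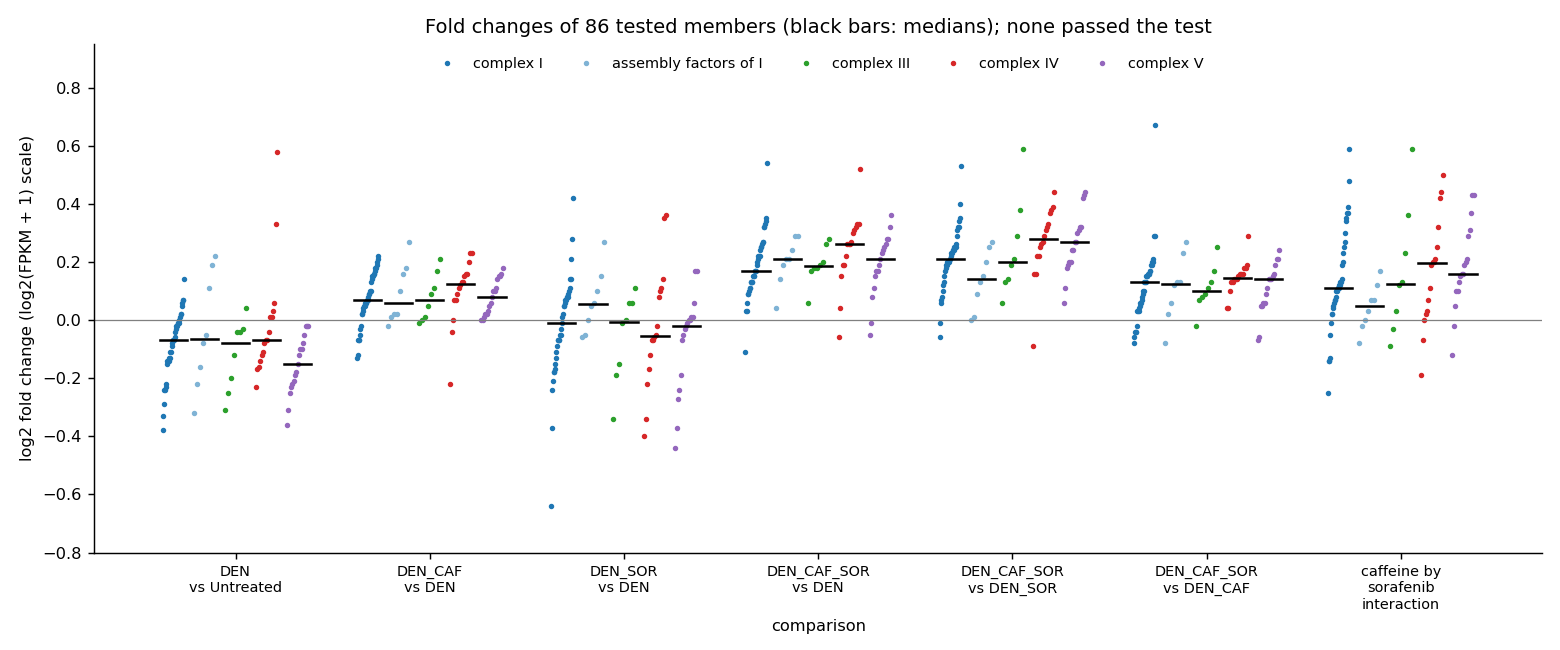
Log2 fold change of each of 86 tested members (points, coloured by complex) in 7 comparisons, with the median of each complex as a black bar. Medians lie above 0 in all complexes for DEN_CAF_SOR against DEN (0.17 to 0.26) and near 0 for DEN_SOR against DEN. No member passed the test.

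Carcinogen exposure alone, DEN against Untreated, left members close to their Untreated levels. Of the 86 tested, 0 were called, where 2.04% of all genes were (4.69% by edgeR and 8.16% by DESeq2). The smallest adjusted p of a member was 0.253 by limma, and 2 members had an unadjusted p under 0.05, against 16.5% of all genes. The median log2 fold change was -0.08 (all genes 0.03), with 19 values positive and 67 negative (36 and 51 when scaled to nuclear reads alone, median -0.02). The 95% interval lay within a 2-fold change either way for 83 of 86 members and within 1.5-fold for 66. All 17 complex V values were negative, with Atp5b at -0.36 (SE 0.29) and Atp5a1 at -0.25 (SE 0.27). Atp5b had a lowest of 75.7, a median of 250 and a highest of 301 FPKM in DEN livers, against 227, 225, 259, 300 and 265 FPKM in Untreated livers. The low DEN values were those of DEN 3 and DEN 4, and the other 4 DEN libraries overlapped the Untreated ones.

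The 2 members at an unadjusted p under 0.05 were Cox6b2 and Ndufa7. Cox6b2, the testis form of a complex IV subunit, had a lowest of 0.0458, a median of 0.922 and a highest of 2.97 FPKM in DEN livers, against 0.23, 0, 0.226, 0.421 and 0.549 FPKM in Untreated livers (log2 fold change 0.58, SE 0.26, limma adjusted p = 0.253). It rests on 1 to 52 reads a library in DEN and at most 10 in Untreated, and the groups overlapped. No Untreated library reached 1 FPKM, so Cox6b2 passed the filter only through carcinogen-exposed libraries. The filter thus favours a positive value here, which cannot be read as support for a rise. Ndufa7, an accessory subunit of complex I (chromosome 17, 34043546-34057291, GRCm39), had a lowest of 42.2, a median of 61.4 and a highest of 72.3 FPKM in DEN livers, against 67, 56.9, 90.1, 74.7 and 82.6 FPKM in Untreated livers (log2 fold change -0.33, SE 0.15, limma adjusted p = 0.28). The Untreated values above 74 FPKM were those of libraries 3, 4 and 5, which hold Xist reads. The next values in size of p were Ndufaf6 at 0.22 (SE 0.14) and Cox7a1 at 0.33 (SE 0.24) among positive ones, and Ndufb2 at -0.22 (SE 0.14) and Ndufa9 at -0.24 (SE 0.16) among negative ones. Of 5 tested cholangiocyte markers all 5 were positive (median 1.14, 1 called), and their part in the members' values was not tested.

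The direction for DEN against Untreated depended on libraries. Among libraries numbered 3 and 4 alone the members' median was -0.45, and Ndufs1, the largest core subunit of complex I, was called lower (log2 fold change -1.13, limma adjusted p = 0.0346). Ndufs1 had 6.46 and 4.43 FPKM in DEN 3 and 4, against 13.1 and 12.7 FPKM in Untreated 3 and 4. This call rests on 2 libraries against 2, and the share of all genes called in this fit was not worked out. DEN 3 and 4 held 0 and 2 Xist reads, against 22879 and 29770 in Untreated 3 and 4, so carcinogen and this sign of sex cannot be told apart there. Reads of the Y gene Ddx3y were 1294 and 132 in DEN 3 and 4, against 84 and 30 in Untreated 3 and 4. DEN 4 was thus low in both Xist and Ddx3y. Among the other libraries the members' median was 0.11, with 68 positive and 18 negative values. Without DEN 3 and 4 it was 0.06, with 59 positive and 27 negative values, and without Untreated 3, 4 and 5 it was 0.06, also with 59 positive and 27 negative values.

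Caffeine after carcinogen, DEN_CAF against DEN, gave 0 members called, where 0.00785% of all genes were called by limma and by edgeR and 0.0785% by DESeq2. No member had an unadjusted p under 0.05, against 2.81% of all genes. The median was 0.09 (all genes 0.02), with 73 positive and 13 negative values (54 and 32 by DESeq2, median 0.04), and all 86 intervals lay within 2-fold. The smallest p among positive values belonged to Ndufaf1, an assembly factor (0.27, SE 0.18), Ndufa10 (0.21, SE 0.15) and the core subunit Ndufs7 (0.22, SE 0.16). Among negative values it belonged to Cox6b2 (-0.22, SE 0.26), Ndufb8 (-0.12, SE 0.21) and Ndufb3 (-0.07, SE 0.14). Ndufs7, which holds an iron-sulfur cluster, averaged 67.8 ± 7.35 FPKM in DEN_CAF livers (n = 5) and 58.5 ± 9.36 FPKM in DEN livers (n = 6), a gap of about 1 SD. Among libraries numbered 3 and 4 alone the members' median was 0.27, and among the others it was 0.02. Without DEN 3 and 4 it was -0.06, with 28 positive and 58 negative values.

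Sorafenib after carcinogen, DEN_SOR against DEN, divided the members. Of 86, 38 values were positive and 48 negative (58 and 29 when scaled to nuclear reads alone, median 0.06), with a median of -0.01 (all genes -0.02) and 0 called, where 0% of all genes were called by limma, 0% by edgeR and 0.243% by DESeq2. At an unadjusted p under 0.05 there were 3 members, all negative, against 6.19% of all genes. Ndufb1, a small accessory subunit of complex I (chromosome 12, 101934349-101943327, GRCm39), had 19.4, 21, 28.3 and 16.5 FPKM in DEN_SOR livers, against a lowest of 23.8, a median of 36.4 and a highest of 38.7 FPKM in DEN livers. Only DEN_SOR 3 reached into the DEN range, and the log2 fold change was -0.64 (SE 0.21, limma adjusted p = 0.658).

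Cox7c, a small subunit of complex IV (chromosome 13, 86192935-86195023, GRCm39), had 167, 178, 198 and 155 FPKM in DEN_SOR livers, against a lowest of 176, a median of 245 and a highest of 260 FPKM in DEN livers (log2 fold change -0.40, SE 0.16, limma adjusted p = 0.771). Atp5mpl, a small membrane subunit of complex V (chromosome 12, 111927809-111933411, GRCm39), had 69.3, 61.7, 70.6 and 64.1 FPKM in DEN_SOR livers, against a lowest of 67.3, a median of 90.2 and a highest of 99.2 FPKM in DEN livers (log2 fold change -0.37, SE 0.17, limma adjusted p = 0.793). For both, the groups touched only through the lowest DEN library. All 5 small membrane subunits of complex V were negative, with a median of -0.19, while the F1 head and central stalk had a median of 0.01. The complex III core protein Uqcrc1 lay at -0.00 (SE 0.18).

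Cox7a2l, a factor that joins complexes III and IV into supercomplexes, was the positive value with the smallest p. It had 108, 73.6, 63.5 and 55.4 FPKM in DEN_SOR livers, against a lowest of 38.9, a median of 58.4 and a highest of 88 FPKM in DEN livers (log2 fold change 0.35, SE 0.20, limma adjusted p = 0.881). The groups overlapped, and DEN_SOR 1 was the highest. Among libraries numbered 3 and 4 alone the members' median was 0.27, and among the others it was -0.15. Without DEN 3 and 4 it was -0.17. Endothelial markers had negative values in this comparison in 7 of 7 cases (median -0.74, 4 at an unadjusted p under 0.05, 0 called). They summed to 8.98, 28.2, 32.4 and 16.4 FPKM in DEN_SOR livers, against a lowest of 27.1, a median of 34.1 and a highest of 47.2 FPKM in DEN livers. Only DEN_SOR 1 and 4 lay below the DEN range. Stellate or fibroblast markers were low in DEN_SOR 1 and 4 too (13.4 and 10.1 FPKM, against 22.3 to 47.3 in DEN livers). Of 5 tested cholangiocyte markers 4 were positive (median 0.56, 3 at an unadjusted p under 0.05, 0 called). The part of these cells in the members' values was not tested.

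The combination after carcinogen, DEN_CAF_SOR against DEN, gave the most one-sided set of values among the comparisons with DEN. Of 86 members, 82 were positive and 4 negative, with a median of 0.20 (all genes 0.01). None was called, where 0% of all genes were called by limma, 0% by edgeR and 0% by DESeq2. At an unadjusted p under 0.05 there were 3 members by limma and 7 by DESeq2, against 2.72% of all genes by limma. Medians were 0.17 in complex I, 0.19 in III, 0.26 in IV and 0.21 in V. The interval lay within 1.5-fold for 42 of 86 members and within 2-fold for 83.

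Ndufa10, an accessory subunit of complex I (chromosome 1, 92366732-92401582, GRCm39), had the smallest p. It had 40.9, 38, 59, 59.1 and 42.3 FPKM in DEN_CAF_SOR livers, against a lowest of 25.8, a median of 37.7 and a highest of 44.8 FPKM in DEN livers (log2 fold change 0.34, SE 0.15, limma adjusted p = 1). DEN_CAF_SOR 3 and 4 lay above all DEN libraries, and the other 3 lay among them. Ndufa7 had 67, 73.6, 82.7, 76.1 and 68.9 FPKM in DEN_CAF_SOR livers, against a highest of 72.3 FPKM in DEN livers (log2 fold change 0.33, SE 0.15). Cox7a1 had 4.51, 2.89, 6.9, 3.09 and 3.12 FPKM in DEN_CAF_SOR livers, against a lowest of 1.82, a median of 2.22 and a highest of 4.22 FPKM in DEN livers (log2 fold change 0.52, SE 0.24). Ndufb1 at -0.11 (SE 0.20), Atp5mpl at -0.05 (SE 0.16), Cox6b2 at -0.06 (SE 0.26) and Atp5k at -0.01 (SE 0.21) were the 4 negative values.

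The positive direction for the combination was seen in the libraries numbered 3 and 4. Among those libraries alone the median was 0.70, and 53 of 84 members had an unadjusted p under 0.05, though 0 were called. The share of all genes at that p in this fit was not worked out, so the 53 cannot be read as particular to members. Among the other libraries the median was -0.08, with 17 values positive and 69 negative. Without DEN 3 and 4 it was 0.05. Cox4i1 shows both sides: it had 595 and 476 FPKM in DEN_CAF_SOR 3 and 4, against 262 and 232 FPKM in DEN 3 and 4, while it had 348, 359 and 369 FPKM in DEN_CAF_SOR 1, 2 and 5, against 444, 347, 397 and 386 FPKM in DEN 1, 2, 5 and 6. Mitochondrial reads took 15.7% and 18.7% of DEN_CAF_SOR 3 and 4, against 33.4% and 9.58% of DEN 3 and 4. With all libraries scaled to nuclear reads alone, the median was 0.19, with 82 positive and 5 negative values. Without the 4 libraries above 20% mitochondrial reads it was 0.15. Beyond these values, the part of mitochondrial reads in the result was not tested.

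Caffeine added to sorafenib, DEN_CAF_SOR against DEN_SOR, also had 82 positive and 4 negative values, with a median of 0.23 (all genes 0.03). Scaled to nuclear reads alone the median was 0.14, with 76 positive and 11 negative values. None was called, where 0% of all genes were called by limma, 0% by edgeR and 0.00785% by DESeq2, and 6 had an unadjusted p under 0.05, against 3.39% of all genes. This comparison shares its DEN_SOR libraries with that of DEN_SOR against DEN, and Ndufb1 (0.53, SE 0.22) and Cox7c (0.44, SE 0.17) were again among the smallest p. Uqcrb, a ubiquinone-binding subunit of complex III (chromosome 13, 67048681-67053442, GRCm39), had 99.1, 161, 145, 162 and 125 FPKM in DEN_CAF_SOR livers, against 82.4, 107, 116 and 64.6 FPKM in DEN_SOR livers (log2 fold change 0.59, SE 0.21, limma adjusted p = 1). Of the 5 DEN_CAF_SOR values, 4 lay above all DEN_SOR values, and DEN_CAF_SOR 1 did not. The negative values with the smallest p were Cox7a2l (-0.09, SE 0.21), Ndufb7 (-0.06, SE 0.25) and Ndufa2 (-0.01, SE 0.25). The median was 0.45 among libraries numbered 3 and 4 and 0.11 among the others. All 7 endothelial markers were positive here (median 0.59, 5 at an unadjusted p under 0.05, 0 called), with sums of 25.5 to 44.7 FPKM in DEN_CAF_SOR livers, against 8.98 to 32.4 FPKM in DEN_SOR livers, and their part was not tested.

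Sorafenib added to caffeine, DEN_CAF_SOR against DEN_CAF, had 76 positive and 10 negative values (66 and 21 when scaled to nuclear reads alone, median 0.08), a median of 0.13 (all genes -0.01) and 0 called, where 0% of all genes were called by limma, 0% by edgeR and 0.00785% by DESeq2. No member had an unadjusted p under 0.05 by limma, 1 had by edgeR and 2 by DESeq2, against 2.95% of all genes by limma. Ndufa12 had the smallest p (0.67, SE 0.37) and is uncertain: it averaged 10.7 ± 6.87 FPKM in DEN_CAF_SOR livers (n = 5) and 5.43 ± 1.54 FPKM in DEN_CAF livers (n = 5), while its processed pseudogene Ndufa12-ps held 288 to 1107 reads a library, so reads may be split between them. Ndufs8 at 0.21 (SE 0.13) and Ndufs4 at 0.29 (SE 0.19) followed among positive values, and Ndufa13 at -0.08 (SE 0.17), Ndufaf1 at -0.08 (SE 0.19) and Ndufa3 at -0.06 (SE 0.17) were the negative values with the smallest p. The median was 0.43 among libraries numbered 3 and 4 and -0.10 among the others.

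The caffeine by sorafenib interaction asks whether the combination differs from the sum of the effects of each drug on the log2 scale. Its median over members was 0.12 (all genes 0.01), with 70 positive and 16 negative values (45 and 42 when scaled to nuclear reads alone, median 0.00) and 0 called, where 0% of all genes were called by limma, 0% by edgeR and 0.0863% by DESeq2. Uqcrb was the only member with an unadjusted p under 0.05 by limma (0.59, SE 0.28, limma adjusted p = 0.992), against 3.97% of all genes. Ndufb1 at 0.59 (SE 0.30) and Cox7c at 0.44 (SE 0.23) followed, and Ndufb7 at -0.25 (SE 0.33), Cox7a2l at -0.19 (SE 0.29) and Ndufs7 at -0.14 (SE 0.25) were the negative values with the smallest p. Intervals were wide here, within 1.5-fold for 17 of 86 members and within 2-fold for 73. The median was 0.16 among libraries numbered 3 and 4 and 0.07 among the others, and without DEN 3 and 4 it was 0.29. The 7 endothelial markers were all positive in the interaction as well (median 0.90, 3 at an unadjusted p under 0.05, 0 called), and their part was not tested.

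Members did not all follow the library number the same way. The difference between libraries numbered 3 and 4 and the others of the same group was averaged over the 5 groups for each member. It lay between -0.87 (Atp5pb) and 0.46 (Ndufb7) on the log2 scale, with 37 of 86 members higher. In 11 members libraries 3 and 4 were higher in all 5 groups, and in 4 they were lower in all 5. Atp5pb, the b subunit of the peripheral stalk, had 41.5 FPKM in DEN_SOR 4, 50.8 and 45.6 in DEN_CAF 3 and 4, and 44.1 and 26.8 in DEN 3 and 4, against 98.8 FPKM or more in every other DEN, DEN_CAF and DEN_SOR library except DEN_SOR 3 (70.2 FPKM). Atp5e, the epsilon subunit of the same enzyme's central stalk, had 229 and 230 FPKM in DEN_CAF_SOR 3 and 4, against 124 to 128 FPKM in DEN_CAF_SOR 1, 2 and 5. The average difference was -0.87 for Atp5pb, -0.61 for Atp5a1, -0.54 for Atp5b and 0.43 for Atp5e, but it did not hold in every group and library: in Untreated livers Atp5b was at 0.23 and Atp5pb at 0.04, and Atp5e in DEN 4 (137 FPKM) lay among the other DEN libraries. Members listed with 1500 bases or more had a median difference of -0.16 (46 genes) and shorter ones 0.03 (40 genes). Over the 86 members, Spearman's rho with listed length was -0.31, a description across genes that share libraries.

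**Figure D4:**
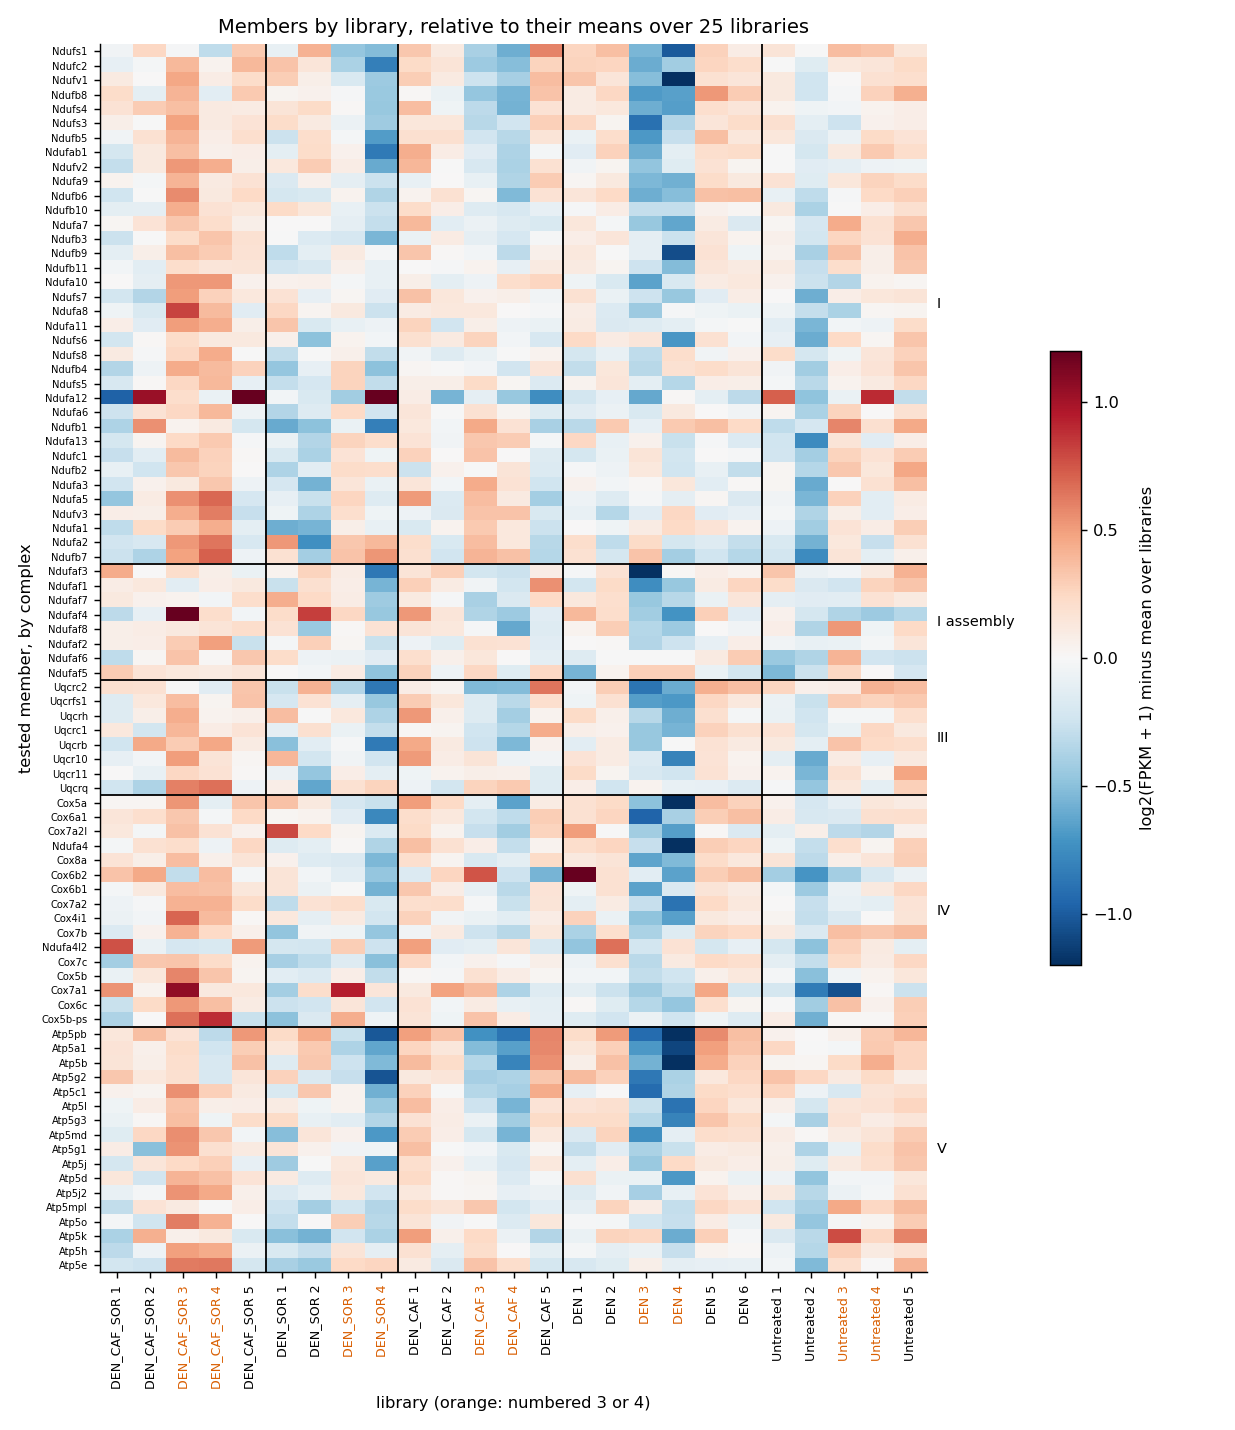
Tested members (rows, by complex, ordered by the difference between libraries numbered 3 and 4 and the others) in each library (columns, by group), as log2(FPKM + 1) minus its mean over libraries. Columns named in orange are libraries 3 and 4. In DEN_SOR 4, DEN_CAF 3 and 4, and DEN 3 and 4 the top rows of complexes I and V are mostly blue and the bottom rows paler or red, while DEN_CAF_SOR 3 is red in most rows.

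The balance of complexes IV and V against complex I differed by library number within the carcinogen groups. Summed FPKM of complex IV over complex I was 0.906 and 0.81 in DEN_CAF_SOR 3 and 4, against 0.943 to 0.965 in the other DEN_CAF_SOR libraries. It was 0.721 to 0.828 in DEN_SOR 3 and 4 against 0.879 to 0.973, 0.773 to 0.792 in DEN_CAF 3 and 4 against 0.932 to 1, and 0.697 to 0.76 in DEN 3 and 4 against 0.882 to 0.987 in the others of each group. In Untreated livers the ranges overlapped (0.825 to 0.903 against 0.885 to 0.94). Complex V over complex I was also lower in libraries 3 and 4 than in all others of the same group in each of the 4 carcinogen groups (0.506 to 0.564 against 0.618 to 0.714 in DEN), and overlapped in Untreated livers. Complex III over complex I was lower in libraries 3 and 4 in DEN_SOR, DEN_CAF and DEN, and overlapped in DEN_CAF_SOR (0.479 to 0.509 against 0.494 to 0.518) and in Untreated livers. Group means of complex IV over complex I were 0.915 ± 0.0627, 0.85 ± 0.105, 0.887 ± 0.0994, 0.878 ± 0.123 and 0.893 ± 0.043 in DEN_CAF_SOR, DEN_SOR, DEN_CAF, DEN and Untreated livers (SD), and the groups' ranges overlapped. A ratio within a library does not depend on how the library is scaled.

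The 13 subunits encoded by mitochondrial DNA took other signs than the nuclear ones in several comparisons. None was called in any comparison. Their median log2 fold change was 0.30 in DEN against Untreated and 0.38 in DEN_SOR against DEN, with all 13 values positive, where the nuclear members had -0.08 and -0.01. For DEN_CAF_SOR against DEN_SOR it was -0.36, with all 13 negative, where the nuclear members had 0.23. Signs also differed for DEN_CAF_SOR against DEN_CAF (-0.26 and 0.13) and the interaction (-0.65 and 0.12). Both medians were positive for DEN_CAF against DEN (0.29 and 0.09) and DEN_CAF_SOR against DEN (0.04 and 0.20). Scaled to nuclear reads alone, the nuclear members had -0.02 in DEN against Untreated and 0.06 in DEN_SOR against DEN. Reads of mitochondrial DNA per member read ran between 4.2 and 31 over the libraries. Group means were 7.09 ± 3.04, 12.9 ± 12.1, 10.7 ± 7.29, 9.92 ± 10.5 and 5.89 ± 1.93 in DEN_CAF_SOR, DEN_SOR, DEN_CAF, DEN and Untreated livers (SD), and all overlapped. Group medians were 5.71, 7.64, 6.84, 4.81 and 5.32 in the same order, so the median was lower in DEN than in Untreated livers. The highest value, 31, was that of DEN 3. FPKM of both sets share 1 total, so more of one lowers the other. Scaling to nuclear reads alone gave 0 calls as well.

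Genes around the chain were read from lists. None of 4 complex II subunits, 5 further chain subunits such as Cyc1 (cytochrome c1 of complex III), 13 tricarboxylic acid cycle genes, 23 tested complex IV assembly factors or 5 tested factors each of complexes III and V was called in any of the 7 comparisons. Atpif1, the inhibitor of ATP synthase, averaged 18.7 ± 3.02, 18.3 ± 3.67, 19.4 ± 3.35, 18.2 ± 5.76 and 16.5 ± 5.23 FPKM in the same order of groups (SD) and was not called. In DEN against Untreated, 1 of 11 tested complex I assembly factors with other names and 1 of 8 tested regulators of respiratory genes were called, both lower, where 2.04% of all genes were called.

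Dmac2, an assembly factor of the distal membrane arm of complex I, had a lowest of 7.25, a mean of 11.7 and a highest of 15.2 FPKM in DEN livers, against 21.4, 13.1, 30.8, 20.3 and 18.5 FPKM in Untreated livers. It fell by 0.76 on the log2 scale (SE 0.18, limma adjusted p = 0.0242; edgeR adjusted p = 0.00773), and Untreated 2 was the only Untreated library inside the DEN range. Ppargc1b, which encodes the coactivator PGC-1 beta, averaged 0.499 ± 0.184 FPKM in DEN livers (n = 6) and 1.15 ± 0.273 FPKM in Untreated livers (n = 5). Its log2 fold change was -0.52 by limma (SE 0.13, limma adjusted p = 0.0408) and -1.27 by edgeR (edgeR adjusted p = 0.00813). The limma value is on the log2(FPKM + 1) scale, which understates changes at such low levels. The lowest Untreated value of 0.892 FPKM lay above the highest DEN value of 0.745 FPKM. Scaled to nuclear reads alone the adjusted p was 0.0686 for Dmac2 and 0.0472 for Ppargc1b, and with only the DEN and Untreated groups in the fit it was 0.114 for Dmac2. In that fit Ppargc1b missed the filter of 1 FPKM in 4 libraries and was not tested. No DEN library reached 1 FPKM, so there it could pass only through Untreated livers, where it was high. Without a filter on low values the adjusted p was 0.0599 for Ppargc1b. Leaving out 1 library at a time, Dmac2 stayed called in 7 of 11 cases and Ppargc1b in 3 of 11. For Dmac2 the adjusted p was 0.052 among libraries numbered 3 and 4 alone and 0.221 among the others, and for Ppargc1b it was 0.0875 and 0.281. Without Untreated 3, 4 and 5 the adjusted p was 0.352 for Dmac2 and 0.249 for Ppargc1b by limma. Ppargc1a at -0.30 (SE 0.21), Gabpa at -0.38 (SE 0.19) and Esrra at 0.11 (SE 0.21) were not called.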

How the data were processed

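Total RNA of liver from 25 mice was sequenced. HISAT2 2.0.5, featureCounts 1.5.0-p3 and the builds GRCm39 and mm39 are named in the submitters' processing notes. The 5 deposited tables hold a normalized signal per gene, named FPKM in their headers, which the values show to be reads divided by 1 size factor per library. Dividing by that step gave whole reads within 0.01 read for 100% of values. The totals were 14750278 to 21992613 reads per library. FPKM was computed here from those reads, the library total and the tables' gene length, in place of the FPKM that had been planned for.

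Genes that reached 1 FPKM in 4 libraries or more entered the test with limma 3.58.1 (R 4.3.3, empirical Bayes with trend) on log2(FPKM + 1), in a single fit of all 5 groups with 20 residual degrees of freedom. Fold changes on this scale understate changes of low genes. P-values were adjusted by Benjamini-Hochberg within each comparison, with 0.05 as threshold. On the recovered reads, edgeR 4.0.16 (quasi-likelihood) and DESeq2 1.42.0 were alternatives. The limma step was tested on simulated data. Other alternatives were scaling, filters, the pseudocount, a replicate block, subsets of libraries and leaving out each library.

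With 0 members called, the text names the 3 smallest p-values in each direction, the highest and lowest member of each complex, tissue isoforms and core subunits. A few further values (Atp5pb, Atp5e, Atp5k, Cox4i1 by library, Ndufa1, Uqcrq) were chosen after they were seen. A single member is not reported here by name and is not drawn in the plots that label members, though it stays in all fits, counts and sums. The members and gene lists were chosen with earlier results of these data known. Replicate libraries of a group differed by more than sampling noise (chi-square per degree of freedom 17.1 to 382 over 51 pairs). Promoters came from RefSeq on GRCm38.p6, a different build from that of the tables, and were joined by symbol only.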

Additional observations from a re-analysis of the deposited data

Results flagged for a closer look

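In 185 checks of a group for a library far from the rest (37 quantities), 9 stood out. Chance gives about 1 in 20, so this number is close to what chance gives. DEN_SOR 4 was apart in 3 of them. Its summed FPKM of complex IV was 1957, against 2523 to 2604 in the other DEN_SOR libraries. Its Ndufb8, an accessory subunit of complex I, was at 15.6 FPKM, against 21.4 to 22.3, and its Ndufa12 at 20.4 FPKM, against 5.03 to 6.88. This library had the highest share of mitochondrial reads (34.8%), whose part was not tested.

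The other 6 were single values. Cox6b2 stood at 2.97 FPKM in DEN 1, against 0.0458 to 1.09 in the other DEN livers, and Cox7a1 at 4.22 FPKM in DEN 5, against 1.82 to 2.48. Ndufa7 was at 86.4 FPKM in DEN_CAF 1, against 57.7 to 62.7. Ndufaf1 was at 13.7 FPKM in DEN_CAF_SOR 3, against 16 to 16.5. Ndufaf6 was at 11.2 FPKM in Untreated 3, against 5.77 to 6.88, and Ndufs7 at 41.2 FPKM in Untreated 2, against 62.7 to 69.6.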

How the results depend on the processing

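The count of called members was 0 in 178 of 179 alternative fits and 1 (Ndufs1) for DEN against Untreated among libraries numbered 3 and 4 alone. A median was counted as moved when it shifted by 0.18 or more, the within-group SD of a single library's median over members. That SD is not the spread of a median fold change. Medians moved in 9 of 179 alternative fits, all of them subsets by library number. Among libraries 3 and 4 alone they were -0.45 for DEN against Untreated, 0.27 for DEN_CAF and 0.27 for DEN_SOR against DEN. For DEN_CAF_SOR against DEN, DEN_SOR and DEN_CAF they were 0.70, 0.45 and 0.43. Among the other libraries they were 0.11 for DEN against Untreated, and -0.08 and -0.10 for DEN_CAF_SOR against DEN and DEN_CAF. The cause was not tested. Without DEN 3 and 4 together, shifts stayed under that cutoff, but some signs turned. Medians were then 0.06 for DEN against Untreated and -0.06 for DEN_CAF against DEN. They were -0.17 for DEN_SOR against DEN, 0.05 for DEN_CAF_SOR against DEN and 0.29 for the interaction. Leaving out 1 library at a time, with 0 members called throughout, medians ranged over -0.17 to -0.03 for DEN against Untreated, 0.01 to 0.13 for DEN_CAF against DEN, -0.08 to 0.04 for DEN_SOR against DEN, 0.13 to 0.24, 0.17 to 0.28 and 0.06 to 0.17 for DEN_CAF_SOR against DEN, DEN_SOR and DEN_CAF, and 0.06 to 0.20 for the interaction. Scaling to nuclear reads alone, which removes mitochondrial reads from the total, gave mean summed FPKM of 3444, 3589 and 3328 for complex I in DEN_SOR, DEN_CAF and DEN, 1718 and 1809 for complex III in DEN_SOR and DEN_CAF, 3380, 2883 and 3154 for complex IV and 2362, 2108 and 2266 for complex V in DEN_CAF_SOR, DEN_SOR and DEN_CAF. Without the 4 libraries above 20% mitochondrial reads (a set chosen after seeing the data, as was leaving out DEN 3 and 4 together), the medians were -0.03, 0.10, -0.02, 0.15, 0.17, 0.03 and 0.05 for DEN against Untreated, DEN_CAF and DEN_SOR against DEN, DEN_CAF_SOR against DEN, DEN_SOR and DEN_CAF, and the interaction. Deviations of same-numbered libraries had a median correlation of 0.13 (46 pairs), against -0.03 for 203 pairs with different numbers. The correlation passed 0.1 in 25 of the 46 pairs, and 8 of 24 libraries correlated best with their own number. Libraries of a number thus shared some of their deviation. The labels name no pairing of mice, so the main fit held no block and a replicate block was an alternative. With the replicate block 0 members were called in each comparison, with medians of -0.11, 0.10, 0.04, 0.24, 0.20, 0.13 and 0.08 in the same order. Among the listed genes, the block gave an adjusted p of 0.0306 for Dmac2 and 0.0648 for Ppargc1b.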

Other observations

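Several members have processed pseudogenes with reads of their own. Ndufa12-ps averaged 99.2 FPKM over the libraries, Ndufab1-ps 13.5, Ndufb4c 8.61, Ndufs5-ps 8.42 and Atp5pb-ps 3.08 FPKM. Ndufa12 itself ran between 3.11 and 20.4 FPKM. How reads were divided between the pair was not tested.

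Spread among mice of a group was read on the log2(FPKM + 1) scale. The median within-group SD was 0.28 for the 86 members and 0.31 for all 12741 tested genes. The sets differ in level (medians of 75.2 and 3.84 FPKM), and no set matched on level was used. Atp5pb had the widest spread (0.63) and Ndufs8 the narrowest (0.18).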
